A study of Mus musculus with 16 samples.

Results

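The subject is the 7 genes that encode NMDA receptor subunits in the mouse, Grin1, Grin2a, Grin2b, Grin2c, Grin2d, Grin3a and Grin3b, out of 21368 named genes on the array. They were chosen by name, and every probe whose RefSeq accession belongs to one of them was taken, which gave 11 probes. Grin1, Grin2a, Grin2b and Grin3a have 2 probes each and the other 3 genes have 1. Gene expression was measured on 16 one-colour arrays of cultured C57BL/6 mouse cortex, with 4 arrays for each combination of cell type (neuron or astrocyte) and treatment (control or Klotho). Klotho is an ageing-related protein whose shed form circulates, and the cultures received 1 nM of its recombinant secreted form or PBS alone for 24 h. Neurons were taken from cortex of embryonic day 16 and treated at 14 days in vitro. Astrocytes came, by the growth protocol, from pups of postnatal day 0 to 5, although their labels also carry embryonic day 16, and were shaken for 15 h towards a stated purity over 98%. No label tells whether the 4 arrays of a group are independent cultures, and the p-values therefore cover the array-to-array spread alone, part of which may be technical.

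NMDA receptors are glutamate-gated channels that pass calcium and need a second agonist, glycine or D-serine, at the same time. Each receptor holds the obligatory subunit GluN1, encoded by Grin1, which binds the co-agonist, with glutamate-binding GluN2 subunits, encoded by Grin2a to Grin2d, or glycine-binding GluN3 subunits, encoded by Grin3a and Grin3b. In forebrain neurons GluN2B prevails early in life and GluN2A is added as synapses mature, while GluN2C is best known from the cerebellum and GluN2D from young brain and interneurons. GluN3A is likewise a subunit of the young brain and lowers calcium entry, and GluN3B is best known from motor neurons. The receptor is the classical trigger of synaptic plasticity and of excitotoxic death in cortical neurons, and its presence in astrocytes has long been debated.

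The 7 genes lie on 7 different chromosomes. The array was annotated on an older build than the RefSeq table used for names, and its files give no probe positions, so gene coordinates are not given here. Promoters from RefSeq (GRCm38.p6) were used for 4 of the 7 genes, Grin1, Grin2c, Grin2d and Grin3b. Those of Grin1 and Grin2c are shown because these genes moved in opposite directions between neuron replicates and in the same direction between astrocyte array rows, as described further on. Each window spans an annotated transcript start, with most of its bases upstream, on the minus strand, at chr2:25319163-25319312 for Grin1 and chr11:115267219-115267368 for Grin2c. Capitals mark the letters GGGCGG (a GC box) and CACGTG (an E box), each searched on both strands.
Grin1: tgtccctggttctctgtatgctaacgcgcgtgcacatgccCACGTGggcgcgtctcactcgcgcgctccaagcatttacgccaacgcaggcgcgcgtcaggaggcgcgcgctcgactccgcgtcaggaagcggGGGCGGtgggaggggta
Grin2c: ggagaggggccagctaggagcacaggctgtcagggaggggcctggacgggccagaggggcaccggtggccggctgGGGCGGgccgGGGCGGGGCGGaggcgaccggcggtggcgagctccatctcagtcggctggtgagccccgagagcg
The Grin1 window holds 1 GC box and 1 E box, and that of Grin2c holds 3 matches to the GC box, the last pair of which overlap by 1 base. Over 300 bases around the start, Grin1 has 33 CpG dinucleotides, Grin2c 22, Grin2d 12 and Grin3b 3, against a median of 7 over all 32851 RefSeq promoters of that length. A GC box occurs in 35.7% and an E box in 7.15% of those promoters. These matches describe the letters in the window and were not tested for binding.

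The signal is the log2 processed intensity minus the 75th percentile of the same array, so a level of 0 is the brightness below which 75% of the probes lie, and 1 unit is a 2-fold difference. Levels of different probes are not comparable with each other, since each probe has its own brightness. A probe counts as detected where Agilent's software called its spot well above background, which it did for 56.42% to 66.64% of all probes per array, and 0 spots of these genes were saturated. Of the 11 probes, 10 were detected on all 8 neuron arrays, 4 were detected on all 8 astrocyte arrays and 2 on no astrocyte array. For each gene the brighter probe over all arrays stands for it in counts. The culture labels were checked against marker genes: between the control groups 9 of 10 neuron markers were lower and 7 of 9 astrocyte markers higher in astrocyte cultures, the exception among neuron markers being Snap25, where 30.3% of all probes were called lower and 21.8% higher. In those cultures 7 of 8 microglia markers and 4 of 6 meningeal fibroblast markers were also higher than in neuron cultures. All 8 neuron arrays lay on slide 1 with the controls in row 1 and Klotho in row 2, and the astrocyte arrays lay on slides 2 and 3. Before any astrocyte treatment result it has to be said that the deposit holds conflicting assignments: 6 of the 8 astrocyte columns of the deposited value table carry the signal of another astrocyte array, for 4 of them one of the other treatment. By scanner file, used here unless stated, the controls occupy slide 2 and the Klotho arrays slide 3; by value table each slide holds both treatments, with controls in slide column 3 and Klotho in column 4.

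All NMDA receptor subunit genes were lower in astrocyte than in neuron cultures. By brightest probe 7 of 7 were lower with vehicle, where 30.3% of all 36063 probes tested were called lower, 21.8% higher and 52.2% in either direction. With Klotho it was again 7 of 7, where 36% of 33068 probes were called lower, 27.6% higher and 63.6% in all (limma, Benjamini-Hochberg adjusted p below 0.05). Grin2a and Grin2d were detected by these probes on no astrocyte array and entered the fit through the neuron group alone. With Klotho the same holds for Grin1, detected on 2 of 4 astrocyte arrays. The calls of these genes follow in part from the filter, and the counts of 7 are a description. With Grin2a and Grin2d at their bounds, explained below, the median change over the 7 genes was -4.46 with vehicle and -4.05 with Klotho, against -0.22 and -0.19 over all probes tested. Cell type and slide cannot be told apart, and in bulk cultures fewer cells of a type and less RNA per cell cannot be told apart either. Among genes detected in astrocyte controls the difference was largest for the obligatory subunit and smallest for Grin3b, as the plot of levels by group shows.

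**Figure D1:**
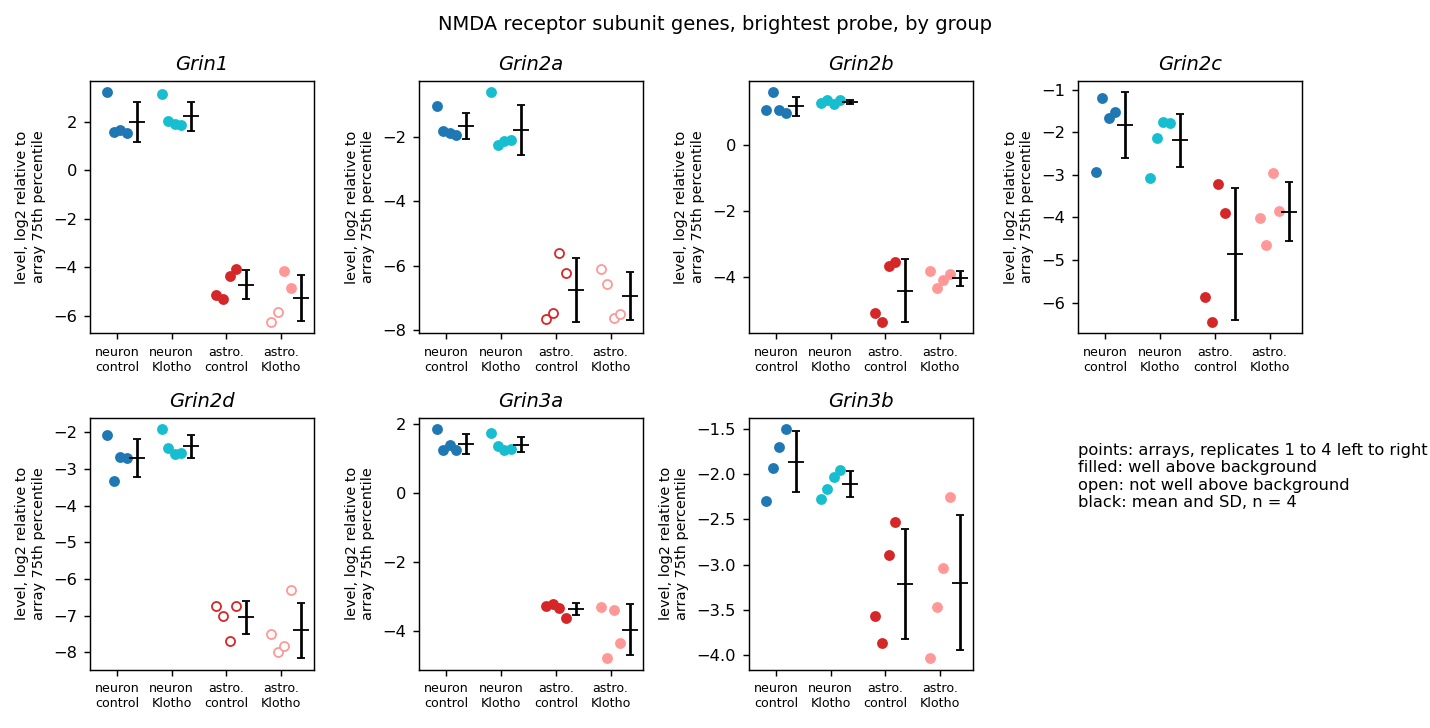
Level of the brightest probe of each NMDA receptor gene on every array (y axis, log2 relative to the array's 75th percentile; scales differ between panels), for the 4 groups by scanner file, with the mean and SD (n = 4) in black and open symbols where the spot was not well above background. All 7 genes have lower means in the astrocyte groups, Grin2a and Grin2d have only open symbols there, and replicate 1 of both neuron groups stands apart for Grin1, Grin2a and Grin2c.

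Grin1, the subunit without which no NMDA receptor forms, measured 3.21, 1.58, 1.67 and 1.52 in neuron control replicates 1 to 4 and 3.13, 2.02, 1.89 and 1.86 in neuron Klotho replicates 1 to 4. On the astrocyte control arrays the same probe measured -5.13, -5.34, -4.35 and -4.09, and on the astrocyte Klotho arrays -6.25, -5.87, -4.17 and -4.86. Every neuron array lay above every astrocyte array, and the astrocyte spot was detected on 4 of 4 control but 2 of 4 Klotho arrays. For this gene and those below, the share of all probes that separate between cell types was not computed. The change was -6.72 ± 0.45 with vehicle (SE, n = 4 per group, adjusted p = 2.79e-06, limma), a 106-fold lower signal. With Klotho it was -7.51 ± 0.47 (adjusted p = 5.49e-07, limma), a size that rests in part on spots at background and is not exact. The second Grin1 probe, dimmer throughout, was detected on only 1 of 8 astrocyte arrays, and it too was lower there with vehicle (-3.97 ± 0.88, adjusted p = 0.00464, limma).

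Among the glutamate-binding subunits, Grin2b encodes the one that prevails in young forebrain. Its brighter probe measured 1.05, 1.60, 1.08 and 0.98 in neuron control and 1.28, 1.35, 1.26 and 1.36 in neuron Klotho. In astrocyte control it measured -5.09, -5.35, -3.66 and -3.54, and in astrocyte Klotho -3.82, -4.34, -4.08 and -3.90. This probe was detected on all 16 arrays and the cell types did not overlap, with a change of -5.59 ± 0.43 with vehicle, 48.1-fold (adjusted p = 7.53e-06, limma), and -5.35 ± 0.17 with Klotho (adjusted p = 1.18e-08). The second Grin2b probe was also lower in astrocytes, but it was detected on only 1 of 4 astrocyte control and 3 of 4 astrocyte Klotho arrays, and the size of its fitted difference (-7.62 ± 0.70 with vehicle) rests on spots at background.

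Grin2a, whose product joins synaptic receptors as they mature, measured -1.04, -1.81, -1.85 and -1.92 in neuron control and -0.61, -2.24, -2.13 and -2.10 in neuron Klotho by its brighter probe. No astrocyte array detected that probe, so the change has only a bound. For such bounds the astrocyte mean was taken from the higher of the probe's own signal and the lowest signal well above background on each array. Grin2a was at least 22.0-fold lower in astrocyte control and at least 16.6-fold lower in astrocyte Klotho cultures. The bounds were not tested. The fits of the measured signals, at background in astrocytes, gave adjusted p = 2.23e-05 with vehicle and 5.34e-06 with Klotho (limma). The second Grin2a probe did not show this: it was dim on every array, between -5.54 and -3.76 in neurons and between -6.71 and -4.66 in astrocytes, and its difference with vehicle did not pass (-0.69 ± 0.52, adjusted p = 0.291, limma). The probes of Grin2a thus disagree, and the dimmer one was detected on 2 of 4 arrays in each astrocyte group, in neuron Klotho on 2 of 4 and in neuron control on 4 of 4.

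Grin2d, which encodes the subunit of slowly closing receptors, likewise was detected on all 8 neuron arrays and no astrocyte array. It measured -2.06, -3.33, -2.67 and -2.70 in neuron control and -1.91, -2.44, -2.60 and -2.57 in neuron Klotho. Signals in astrocytes ranged from -8.00 to -6.31 and were not well above background, which puts the difference at no less than the bound. Its signal was at least 11.8-fold lower in astrocytes with vehicle and at least 10.9-fold lower with Klotho. These bounds were not tested either, and the fits of the measured signals gave adjusted p = 5.56e-06 and 1.35e-06 (limma).

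Grin2c was the GluN2 gene with the smallest gap between the cell types. In neurons it measured -2.94, -1.19, -1.67 and -1.52 with vehicle and -3.08, -2.12, -1.75 and -1.78 with Klotho. In astrocyte control the level was -5.88, -6.45, -3.22 and -3.89, and in astrocyte Klotho -4.01, -4.64, -2.95 and -3.85, detected on every array. The values -5.88 and -6.45 lay near the lowest signal well above background on their arrays, -6.18 and -6.58. The size of the vehicle difference rests in part on them. The vehicle groups did not overlap (-3.03 ± 0.73, adjusted p = 0.00731, limma), whereas with Klotho 1 astrocyte array, at -2.95, was above the lowest neuron array, at -3.08 (-1.68 ± 0.40, adjusted p = 0.00439). Within the astrocyte control group the arrays ran from -6.45 to -3.22, the widest range among the brightest probes detected on all 4.

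The glycine-binding subunits differed from each other in how far they fell. Grin3a measured 1.84, 1.23, 1.38 and 1.23 in neuron control and 1.73, 1.34, 1.25 and 1.27 in neuron Klotho. Its astrocyte levels were -3.28, -3.23, -3.35 and -3.62 with vehicle and -3.30, -4.80, -3.41 and -4.36 with Klotho, all detected. This was the tightest of the cell type differences with vehicle, -4.79 ± 0.21, 27.7-fold (adjusted p = 3.24e-07, limma), and it was -5.36 ± 0.34 with Klotho (adjusted p = 5.70e-07). The second probe of Grin3a gave -2.79 ± 0.25 and -3.79 ± 0.34, also lower in astrocytes. Grin3b, by contrast, measured -2.30, -1.94, -1.71 and -1.51 in neuron control and -2.28, -2.17, -2.03 and -1.95 in neuron Klotho. It stayed detected on all 8 astrocyte arrays, at -3.57, -3.86, -2.90 and -2.53 with vehicle and -4.03, -3.47, -3.03 and -2.26 with Klotho. Its change was the smallest of the 7, -1.35 ± 0.33 or 2.55-fold with vehicle (adjusted p = 0.00767, limma) and -1.09 ± 0.34 with Klotho (adjusted p = 0.0169), where the groups overlapped. In the deposited value table, where signal is scaled to a z-score, the Grin3b difference with Klotho did not pass (-0.17, adjusted p = 0.0767).

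**Figure D2:**
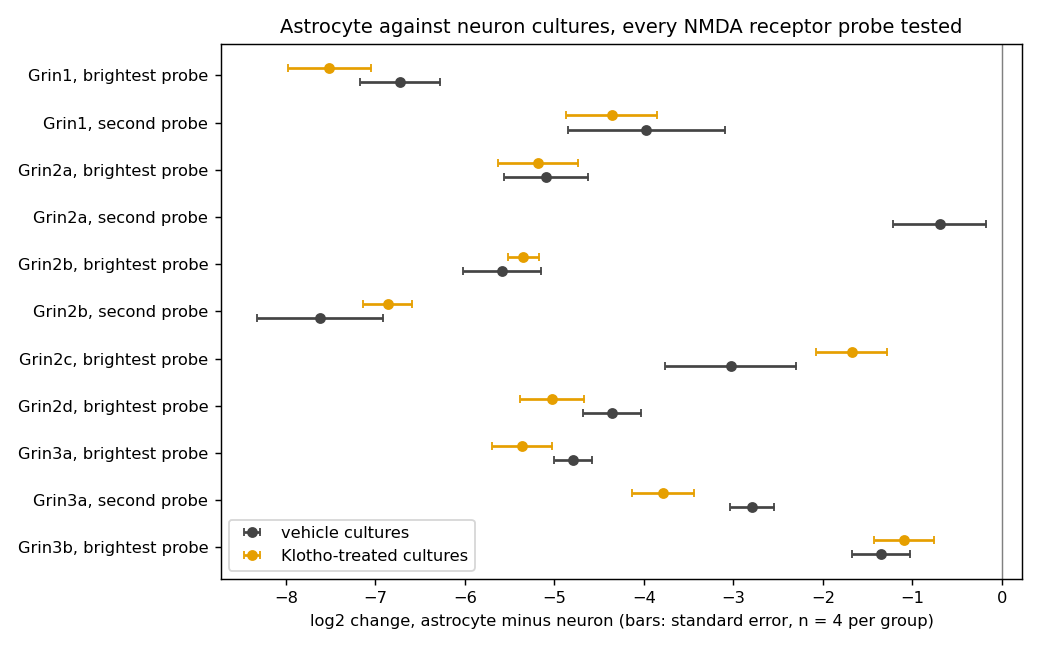
Log2 change of every tested NMDA receptor probe, astrocyte minus neuron (x axis; bars are standard errors, n = 4 per group), with vehicle in grey and with Klotho in orange; values rest wholly on astrocyte spots at background for the brightest Grin2a probe and Grin2d, and in part for both Grin1 probes and the second probes of Grin2a, Grin2b and Grin3a, so their sizes are not exact. All values lie below 0; among probes detected on all 16 arrays they run with vehicle from -5.59 for Grin2b to -1.35 for Grin3b.

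The order of the 4 groups was the same in kind for all 7 genes by brightest probe: both neuron groups above both astrocyte groups, with neighbours of the same cell type within their spread. For Grin1 the means were 2.22 ± 0.61 in neuron Klotho, 1.99 ± 0.81 in neuron control, -4.73 ± 0.60 in astrocyte control and -5.29 ± 0.95 in astrocyte Klotho (SD, n = 4). For Grin2c the order was neuron control at -1.83 ± 0.77, neuron Klotho at -2.18 ± 0.62, astrocyte Klotho at -3.86 ± 0.70 and astrocyte control at -4.86 ± 1.55. For Grin3b it was neuron control at -1.86 ± 0.34, neuron Klotho at -2.11 ± 0.14, astrocyte Klotho at -3.20 ± 0.75 and astrocyte control at -3.21 ± 0.61. No pair of neighbours within a cell type passed the tests given further on.

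The partners of the receptor were lower in astrocyte cultures for the most part as well. Against 30.3% of all probes called lower and 21.8% higher, of 15 tested postsynaptic scaffold genes 11 were lower and 2, Homer3 and Dlg1, higher with vehicle, with a median change of -2.09. Dlg2, which encodes the membrane scaffold PSD-93, led by size at -7.99 ± 0.26 (adjusted p = 9.04e-08, limma), beside Dlgap3 at -7.98 ± 0.38, Homer2 at -6.53 ± 0.36 and Dlgap2 at -6.89 ± 0.59. Dlg4, which encodes PSD-95, the scaffold that binds the tails of GluN2 subunits, was lower by a smaller amount (-2.01 ± 0.20, adjusted p = 3.26e-05). Of 15 kinases, phosphatases and calcium effectors 10 were lower and 0 higher (median -1.71). They included Camk2b, a subunit of the calcium/calmodulin-dependent kinase that docks on GluN2B (-5.42 ± 0.25), Ptpn5, the phosphatase STEP that dephosphorylates GluN2B (-9.60 ± 0.50), Ppp3cb of calcineurin (-3.06 ± 0.21) and the tyrosine kinase gene Fyn (-2.57 ± 0.20). On astrocyte control arrays 12 to 14 of the 15 scaffold genes and 13 to 14 of these 15 were detected. Genes not detected there entered through the neuron group, so their calls follow in part from the filter. No bounds were set for partner genes, and the largest differences may rest on spots at background.

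Genes of receptor trafficking and auxiliary proteins were lower in 12 of 14 cases and higher in 0 (median -1.18). Neto1, an auxiliary subunit of kainate receptors reported to bind NMDA receptors too, measured -6.68 ± 0.22, Lin7b -6.59 ± 0.26, Apba1 -4.54 ± 0.24 and the membrane fusion ATPase gene Nsf -3.15 ± 0.24. Genes of co-agonist supply, which make or carry serine and glycine, had 4 of 11 lower and 1 higher (median -0.53), a share near that of all probes. Slc7a10, a transporter of glycine and D-serine, was lower by 3.34 log2 units (-3.34 ± 0.35, adjusted p = 4.83e-05, limma), the serine-to-glycine enzyme genes Shmt2 by -0.62 ± 0.17 and Shmt1 by -0.77 ± 0.23, and Phgdh, the first enzyme of serine synthesis, by -0.68 ± 0.21. Of 10 genes for glutamate supply and clearance 7 were lower and 1 higher (median -2.74), among them the glutaminase gene Gls2 at -4.26 ± 0.21, the vesicular transporter gene Slc17a7 at -7.67 ± 0.39 and the neuronal uptake gene Slc1a1 at -4.91 ± 0.33. On astrocyte control arrays 13 to 14 of the 14 trafficking genes and 8 to 9 of these 10 were detected, so the same limit applies to large differences here.

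Klotho treatment of neurons gave no called change in any NMDA receptor gene. In that comparison 0 of 7 genes passed, where 0.12% of 34073 probes passed, all of them lower, and 4.05% had an unadjusted p below 0.05 (limma). The changes, Klotho minus control, were 0.23 ± 0.43 for Grin1, -0.12 ± 0.38 for Grin2a, 0.14 ± 0.15 for Grin2b and -0.35 ± 0.42 for Grin2c. They were 0.31 ± 0.27 for Grin2d, -0.02 ± 0.18 for Grin3a and -0.25 ± 0.18 for Grin3b, each with an adjusted p of 0.999 (limma). The Klotho and control arrays overlapped for all 11 probes, and the share of all probes that overlap was not computed. The standard errors of Grin1 and Grin2c were the largest, and a change of that size would not have been resolved. On simulated data this fit called 48% of shifts of 1 log2 unit and 88% of shifts of 2 units. Treatment and slide row cannot be told apart in neurons.

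Neuron arrays with the same replicate number deviated together most clearly for replicate 1 (r = 0.77 over all probes). For replicates 2 to 4 r was 0.16 to 0.44, and arrays of different number reached 0.42. The differences within numbers are therefore given as a description. Grin2d was higher with Klotho in 4 of 4 pairs, by 0.15, 0.89, 0.06 and 0.13. Grin2c was lower in 4 of 4 pairs, by -0.14, -0.94, -0.09 and -0.26. For both genes pair 2 held the largest difference. Grin1 differed by -0.08, 0.44, 0.22 and 0.34 and Grin3b by 0.02, -0.23, -0.32 and -0.45, so 3 of 4 pairs agreed in direction. With the replicate number as a block the count over all probes went from 41 to 25 and the count over these genes stayed at 0 (adjusted p between 0.412 and 0.908 for the 7 brightest probes, limma). Without both replicate 1 arrays, an alternative chosen after seeing the data, Grin1 was 0.33 ± 0.08 higher (adjusted p = 0.136) and Grin2a -0.30 ± 0.07 lower (adjusted p = 0.137), which did not pass either, and 15 probes passed in all.

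A shift of the GluN2A to GluN2B balance was looked for within arrays, where scaling cancels. The level of Grin2a minus that of Grin2b was -2.09, -3.41, -2.93 and -2.90 in neuron control and -1.88, -3.59, -3.39 and -3.47 in neuron Klotho. The highest value of each group belonged to replicate 1. The means were -2.83 ± 0.55 and -3.08 ± 0.80 (SD, n = 4), a difference of -0.251 (two-sided exact permutation test over 70 arrangements, p = 0.6, the smallest possible being 0.0286). This test does not use the replicate numbers. Within numbers the Klotho array was above control in replicate 1 and below it in replicates 2 to 4. Leaving out 1 array moved this difference between -0.650, without Klotho replicate 1, and -0.00258, without control replicate 1. The partner lists gave 0 called genes in neurons as well. Liver markers moved with treatment on these arrays, 4 of 5 tested being lower with Klotho, and their summed level was 2.45 or more on control and between -2.87 and 1.11 on Klotho arrays. Their part in the NMDA receptor values was not tested.

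In astrocytes 5 of the 7 genes could be tested for Klotho. Grin2d and the brighter Grin2a probe were detected on no astrocyte array, and the dimmer Grin2a probe on too few arrays of either group. By scanner file 0 of 5 passed, where 0% of 32155 probes passed and 3.54% had an unadjusted p below 0.05 (limma, smallest adjusted p over all probes 0.99989). On simulated data this fit called 0% of shifts of 1 log2 unit and 41% of shifts of 2 units, so the count of 0 does not show that the genes were unchanged. The changes were -0.56 ± 0.49 for Grin1, 0.38 ± 0.43 for Grin2b, 1.00 ± 0.72 for Grin2c, -0.59 ± 0.35 for Grin3a and 0.02 ± 0.43 for Grin3b. By value table they were -0.12 ± 0.45 for Grin2b, -0.69 ± 0.76 for Grin2c, -0.67 ± 0.34 for Grin3a and 0.35 ± 0.42 for Grin3b, with Grin1 not tested and 0 called (adjusted p = 0.999996, limma). The direction of Grin2b and Grin2c therefore turns with the assignment. Within replicate numbers by scanner file, Grin2c was higher with Klotho in 4 of 4 pairs, by 1.87, 1.81, 0.27 and 0.04. Both Grin3a probes were lower in 4 of 4 pairs, and the pairs of the other genes were mixed. These pairs hold only under that assignment and were not tested.

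Grin3a kept its direction under both assignments, as the plot of Klotho changes shows, but the assignments are not independent. By its brighter probe Grin3a was lowest, at -4.80 and -4.36, on arrays that are Klotho under both. Its second probe had the smallest unadjusted p of these genes in astrocytes, 0.0311, at -0.91 ± 0.36 by scanner file (adjusted p = 0.99989, limma), and measured -3.64, -4.24, -3.93 and -4.21 in control against -4.53, -4.91, -4.32 and -5.92 in Klotho. Those groups did not overlap, although the lowest Klotho spot was not well above background. The share of all probes that separate in this way was not computed. By value table the same probe gave -0.71 ± 0.41 and the groups overlapped. Treatment cannot be told apart from slide by scanner file, nor from slide column by value table.

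**Figure D3:**
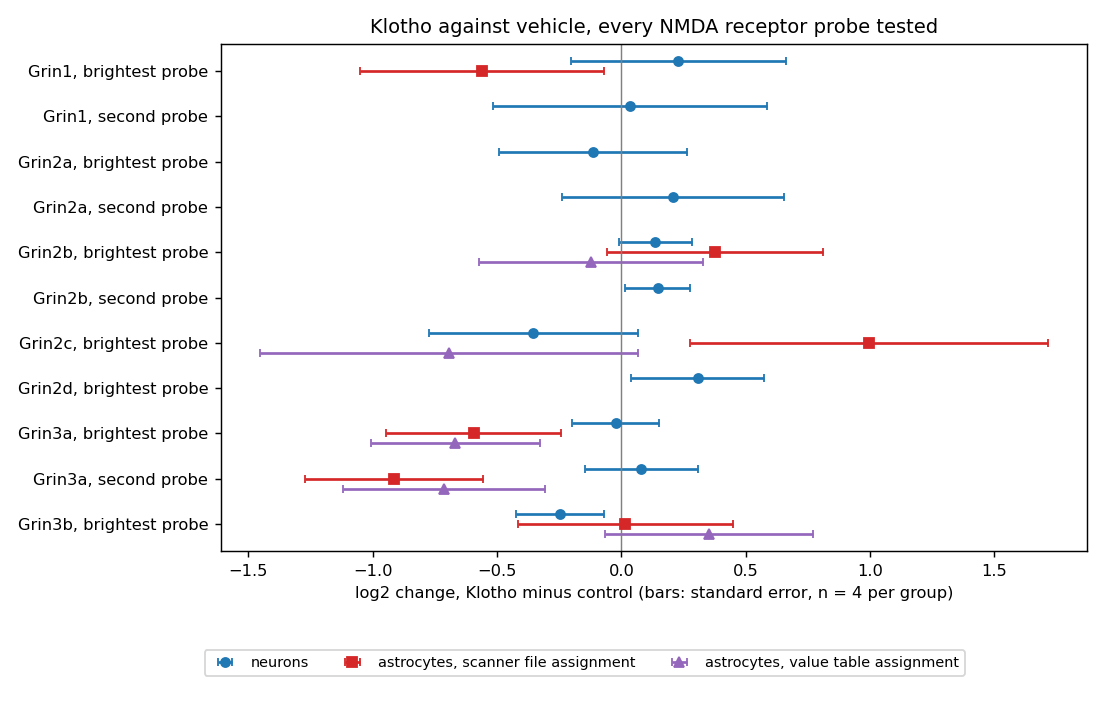
Log2 change with Klotho (x axis, Klotho minus control; bars are standard errors, n = 4 per group) for every NMDA receptor probe tested, in neurons (blue circles) and in astrocytes by scanner file (red squares) and by value table (purple triangles). The neuron values lie between -0.35 and 0.31, and Grin2c in astrocytes runs from -0.69 to 1.00 depending on the assignment.

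The Klotho effect in astrocytes minus that in neurons was tested by an interaction term over all 16 arrays. None of the NMDA receptor genes passed, 0 of 7, where 0.08% of 36235 probes passed (0.0745% higher and 0.00552% lower) and 4.85% had an unadjusted p below 0.05 (limma). The estimates ran from -0.79 ± 0.69 for Grin1 to 1.35 ± 0.89 for Grin2c (adjusted p = 0.999644 for each of the 7). For Grin2a and Grin2d the astrocyte side of this term rests on spots that were not above background.

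Replicate 1 stood apart from the other neuron arrays in both treatment groups, and more so for some subunits than for others. This comparison was chosen after the values were seen. An F test of the replicate number beside treatment over the 8 neuron arrays called 3 of the 7 genes by brightest probe, Grin1, Grin2a and Grin2c, where 21.9% of 34073 probes were called (limma). The adjusted p-values that follow belong to this joint test of all replicate numbers. The shifts of replicate 1 printed beside them were not tested. Grin1 was 1.62 higher in replicate 1 than the mean of replicates 2 to 4 with vehicle and 1.21 higher with Klotho (adjusted p = 0.00895). Its second probe showed 1.98 and 1.66 (adjusted p = 0.0079). Grin2a was 0.82 and 1.55 higher by the brighter probe (adjusted p = 0.0268) and 1.46 and 1.47 higher by the dimmer one (adjusted p = 0.0078). Grin2c went the other way, at -1.48 and -1.19 (adjusted p = 0.0216).

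The remaining genes did not pass this test by their brightest probe. Grin2d was higher in replicate 1 by 0.84 and 0.62 (adjusted p = 0.0938), Grin3a by 0.56 and 0.45 (adjusted p = 0.0522), and Grin3b was at -0.58 and -0.22 (adjusted p = 0.100). Grin2b stayed level, with -0.17 and -0.05 (adjusted p = 0.401), so that among GluN2 genes Grin2a was above, Grin2c below and Grin2b near the other arrays. These 3 directions are a description of 2 arrays. Over the 8 neuron arrays the level of Grin1 correlated with that of Grin3a at r = 0.96, Grin2a at r = 0.85, Grin2d at r = 0.86, Grin2c at r = -0.97, Grin3b at r = -0.81 and Grin2b at r = -0.19, arrays that share replicate 1 as the one that stands apart.

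**Figure D4:**
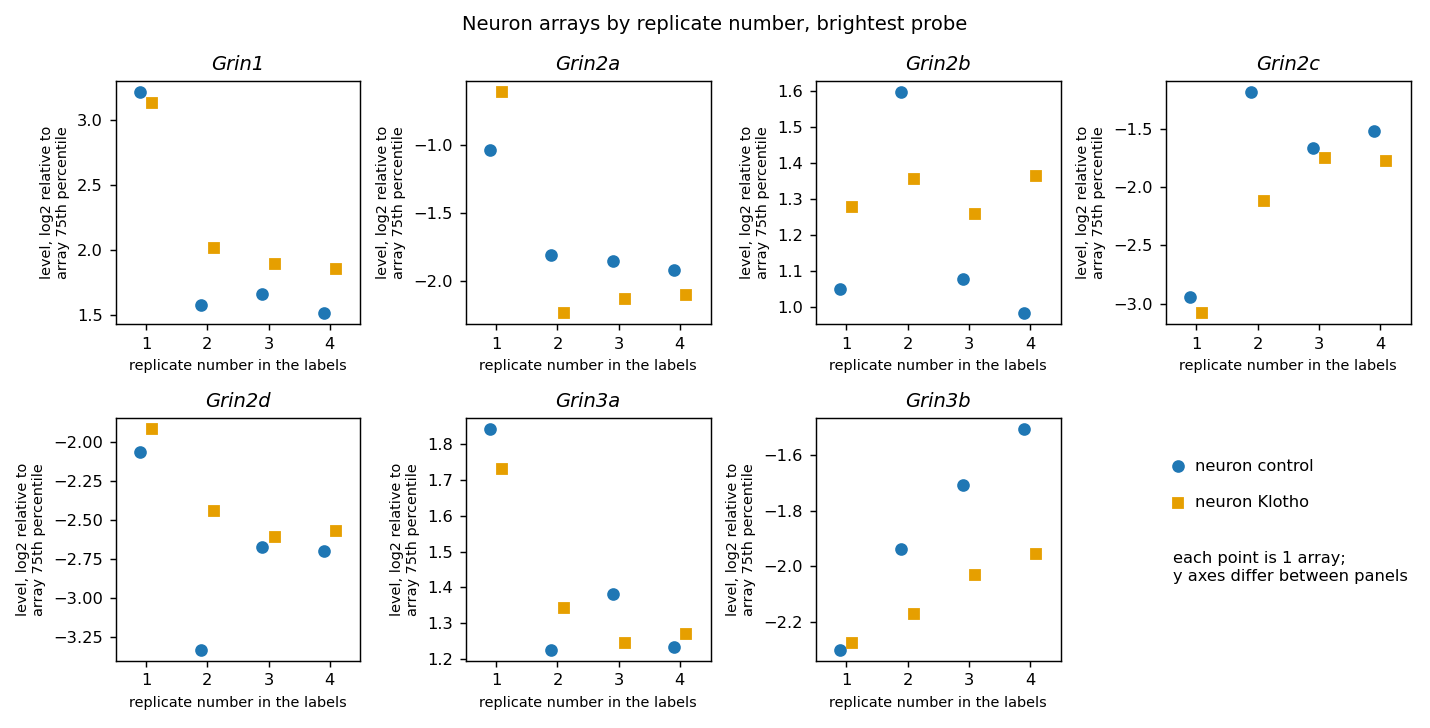
Level of the brightest probe of each NMDA receptor gene on the 8 neuron arrays (y axis, log2 relative to the array's 75th percentile; scales differ between panels) by the replicate number of the labels, with blue circles for control and orange squares for Klotho. Replicate 1 is the highest array of its group for Grin1, Grin2a, Grin2d and Grin3a, the lowest for Grin2c and Grin3b, and neither for Grin2b.

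Cell type markers moved with the same arrays. The summed level of the 10 neuron markers was 9.08 to 9.14 in replicate 1 and 8.68 to 8.78 in replicates 2 to 4, and that of the 10 interneuron markers 7.86 to 7.94 against 7.44 to 7.62, although the mean level of the latter list went the other way, at 2.92 to 2.95 against 3.45 to 3.60. The 9 astrocyte markers summed to 6.67 to 7.05 against 7.41 to 7.68 and the 12 oligodendrocyte lineage markers to 6.52 to 6.55 against 6.84 to 7.30, with every marker of these lists detected on all 8 arrays. Postsynaptic scaffolds also summed higher in replicate 1, at 7.43 on both arrays against 6.86 to 6.93. The part of these markers in the receptor values was not tested. The summed level of the 7 receptor genes was 3.98 to 4.00 in replicate 1 and 3.06 to 3.32 in the others.

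On the astrocyte slides some subunits differed by array row, a feature of the layout that does not depend on which treatment label is right. Row 1 holds replicates 1 and 2 and row 2 replicates 3 and 4 by scanner file, and slide and column were terms of the fit. Of 5 genes tested 3 were higher in row 2, Grin1, Grin2c and Grin3b, where 23.9% of 33036 probes were called higher and 24.6% lower (limma). With 48.5% of all probes called, a call between rows is common on these arrays. Grin2c rose by 1.77 ± 0.35 (adjusted p = 0.00786), Grin1 by 1.28 ± 0.23 (adjusted p = 0.00693) and Grin3b by 1.05 ± 0.21 (adjusted p = 0.00781). For these 3 all row 2 arrays lay above all row 1 arrays, but the share of all probes that separate in this way was not computed. Grin1 was detected on 2 of 4 row 1 arrays and entered the fit through row 2, so its call follows in part from the filter and the size of its difference is not exact. The lowest row 1 values of Grin2c, from astrocyte control replicates 1 and 2, lay near the background limit of their arrays.

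Grin2b did not pass (0.85 ± 0.33, adjusted p = 0.0696, limma), and Grin3a was level between the rows (-0.03 ± 0.27, adjusted p = 0.934). The signs of Grin1, Grin2c and Grin3b held under quantile scaling, median centring and normexp background correction, but Grin1 did not pass under quantile scaling (0.79, adjusted p = 0.0691) or normexp (0.28, adjusted p = 0.271), and Grin3b did not under median centring (0.61, adjusted p = 0.0697). Median centring moved the median of all probes from 0.01 to -0.43 and the share of calls that were higher in row 2 from 49.4% to 26.3%. Normexp put that share at 38.4%. Median centring gave 0.84 for Grin1, 1.33 for Grin2c and 0.61 for Grin3b. It shifts the change of every probe by the same amount, so their place against the median of all probes could not change.

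**Figure D5:**
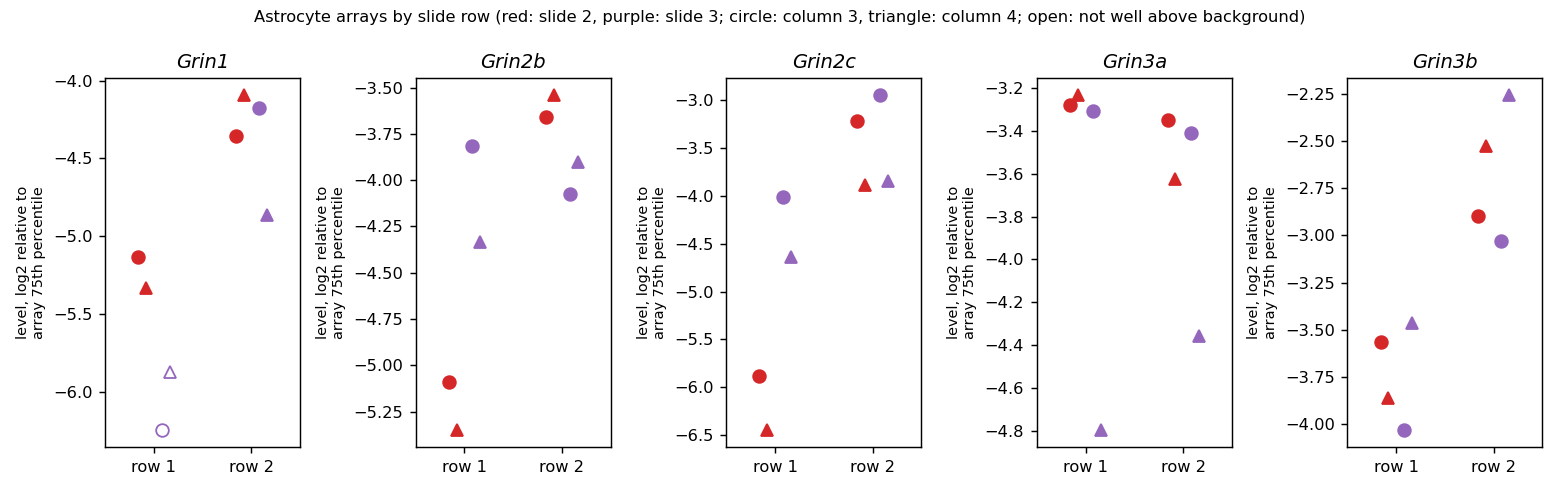
Level of the 5 NMDA receptor genes tested between the rows (y axis, log2 relative to the array's 75th percentile; scales differ between panels) on the 8 astrocyte arrays by slide row, with slide shown by colour, slide column by symbol, and open symbols where the spot was not well above background. For Grin1, Grin2c and Grin3b the 4 arrays of row 2 lie above the 4 of row 1, a separation not counted over all probes. Some Grin1 spots of row 1 were not well above background. For Grin3a the rows overlap.

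Marker lists were set beside these rows by their summed level, in which bright genes weigh most. The summed level of the interneuron markers was 2.17 to 3.47 in row 1 and 3.82 to 5.05 in row 2, with 5 to 9 of 10 detected in row 1 and 9 in row 2. For neuron markers it was 4.99 to 5.64 against 5.73 to 6.68 (7 to 8 of 10 detected in both rows), for oligodendrocyte lineage markers 5.30 to 6.45 against 6.47 to 7.05 (11 to 12 of 12 detected), and for microglia markers 6.57 to 6.93 against 7.12 to 7.74 (8 of 8 detected). Astrocyte markers went the other way, at 8.81 to 9.04 in row 1 and 8.28 to 8.69 in row 2 with 9 of 9 detected. Counts of markers told otherwise: 1 of 9 tested interneuron markers was higher in row 2 and 2 lower, 2 of 7 neuron markers were higher and 3 lower, and 2 of 12 oligodendrocyte lineage markers were higher and 2 lower. Of the microglia markers 1 of 8 was higher and 0 lower, and of the astrocyte markers 0 of 9 higher and 3 lower. The mean level of the neuron markers was lower on every row 2 array (-2.06 to -1.97) than on any row 1 array (-1.74 to -1.67), and that of the interneuron markers overlapped, at -3.31 to -2.60 against -4.13 to -2.33. Their part in the receptor values was not tested. The summed level of the 7 receptor genes ran from -2.01 to -1.61 in row 1 and from -1.16 to -1.02 in row 2.

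Counts of receptor partners called between the rows were small and are to be read against 23.9% of all probes higher and 24.6% lower. Of 13 tested scaffold genes 4 were higher in row 2 and 0 lower, among them Dlg3, which encodes SAP102 (0.72 ± 0.15), and the Shank genes Shank3 (0.87 ± 0.21) and Shank1 (0.75 ± 0.19). Of 13 kinases, phosphatases and calcium effectors 2 were higher and 3 lower, the lower ones including the calcineurin subunit gene Ppp3r1 at -1.45 ± 0.23 and the kinase gene Camk2d at -0.66 ± 0.16. In the trafficking list 2 of 13 were higher and 1 lower, the extremes being Akap9 at 0.98 ± 0.20 and Lin7c at -1.53 ± 0.23. Co-agonist supply had 4 of 11 lower and 0 higher. These were Psat1 (-1.12 ± 0.21) and Psph (-0.69 ± 0.21) of serine synthesis, Srr, the racemase that makes D-serine (-0.94 ± 0.18), and the serine transporter gene Slc1a4 (-0.62 ± 0.17). For glutamate supply, 1 of 8 was higher and 1 lower, the latter being the glutamine synthetase gene Glul at -0.52 ± 0.15.

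The genes whose levels ran most like each subunit were ranked among 16556 candidates by Pearson's r, as a description of arrays that share cell type and slide. Over all 16 arrays Grin1 was most like Begain (r = 0.998), which encodes a protein associated with PSD-95 and its guanylate kinase domain, then Sptbn4 and Ntrk3. Grin2b was most like Lrrc7 (r = 0.996), which encodes the postsynaptic protein densin, then Camk1g and Cplx1. Grin3a was most like Atl1 (r = 0.999), then the potassium channel gene Kcnd2 and Pdxp. Grin2a was most like Kcng1 (r = 0.990) and Grin2d most like Sntg1 (r = 0.992), each with 8 arrays above background. The least neuronal pair in level, Grin2c and Grin3b, had weaker neighbours: Grin2c was most like Bcan (r = 0.970), which encodes the matrix protein brevican, then Kdm5b and Senp7, and Grin3b was most like Lmbr1l (r = 0.972) and Creb1.

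Within the 8 astrocyte arrays the nearest genes were others. Grin1 was most like Zfp932 (r = 0.991), Grin2b Clcn7 (r = 0.979), Grin2c Igdcc4 (r = 0.984), Grin3a Itpk1 (r = 0.991) and Grin3b Tcof1 (r = 0.981). Lmbr1l was in the leading 3 for Grin3b over both sets of arrays (r = 0.970 in astrocytes). Among the subunits themselves Grin2b and Grin2c ran together in astrocytes at r = 0.90, against 0.28 in neurons. Both were lowest in astrocyte control replicates 1 and 2, where Grin2c lay near the background limit. A test of that difference was not made.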

How the data were processed

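Total RNA of 16 samples was labelled with Cy3 and hybridised to 1 array each. Agilent Feature Extraction 12.0.3.1 produced the scanner output for array design 028005, annotated on mm9, per the file headers. The linear intensity taken from it had, per the file headers, been background-corrected and spatially detrended by that software, with no scaling across arrays. The authors' deposited value table holds a score per probe: each column equals the z-score of log2 intensity of 1 array, and it was used only as an alternative. A total of 0 other columns of per-sample values was left out.

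Each array holds 59305 non-control spots for 55681 probes. Population outlier spots were dropped, spots averaged and levels set as log2 intensity minus the array's 75th percentile. Probes were named by RefSeq accession through a GRCm38.p6 gene table, which named 28331 (50.9%). A probe entered a fit if 1 or more of the groups compared had it above background on each of its 4 arrays; fits used limma 3.58.1 (lmFit, then eBayes) under R 4.3.3 with Benjamini-Hochberg adjustment over all probes tested and a threshold of 0.05. The number of arrays limits the precision. Python 3.11.15 was used for preparation. The fits were tested on simulated data, in which 100 probes were shifted by 1 and 100 by 2 log2 units. For Klotho, 48% and 88% of these were recovered in neurons and 0% and 41% in astrocytes. Between astrocyte rows it was 5% and 59%, and between the control groups 1% and 37%. All other simulated probes had no difference, which makes the adjusted threshold strict. In the data 48.5% of probes were called between rows and 52.2% between control groups. The simulated shares therefore do not describe what those fits could find.

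The members, lists and tests were chosen with earlier results of these data known. The 7 subunit genes and all their probes are named, and up to 4 genes per partner list and comparison with the smallest p, so that Dlg4, Homer3 and Dlg1 were named after their values were seen. Some partner genes that this rule takes are not reported here. The main Klotho and cell type fits did not pair the samples by replicate number. The numbers entered the descriptive differences within numbers, the replicate test in neurons and a block used as an alternative. Same-numbered arrays correlated at r between 0.16 and 0.77 in neurons and between 0.17 and 0.72 in astrocytes over all probes, each above 0.1. Some arrays of different number correlated as much, up to 0.42 in neurons and 0.68 in astrocytes. Alternatives were another scaling, normexp background correction (offset 50, on the median signal, as the files hold no mean signal), other filters, the value table and its assignment, replicate and row blocks, and leaving out each array.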

Additional observations from a re-analysis of the deposited data

Results flagged for a closer look

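In 44 sets of 4 arrays (each probe in each group) the highest or lowest array was set against the others by Dixon's ratio at its 95% critical value. In 7 sets an array exceeded it. Chance would mark about 1 in 20 independent sets. These sets share the same 16 arrays, and 4 genes have 2 probes each, so their count cannot be read against that share. All 7 were sets of neuron arrays, and in 6 of them the array was replicate 1. For the brighter Grin1 probe the control array of replicate 1 stood at 3.211 against a mean of 1.588 for the other 3, and the Klotho array at 3.129 against 1.922. For the dimmer Grin1 probe the Klotho array of replicate 1 stood at -1.348 against -3.003. For the brighter Grin2a probe replicate 1 stood at -1.036 against -1.86 in control and at -0.6068 against -2.157 with Klotho, and for the dimmer probe at -3.98 against -5.444 in control. The seventh was neuron control replicate 2 for the brighter Grin2b probe, at 1.597 against 1.039. No difference of the Klotho effect between the cell types met the threshold for these genes.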

How the results depend on the processing

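The counts of NMDA receptor genes called, and the Grin2a to Grin2b balance, were taken as kept in 130 of 131 recomputed values, where a count was kept if it moved by no more than 1.5 times. The exception was the comparison of astrocyte Klotho with neuron Klotho when every compared array had to be above background, which left 4 genes. Losses within the margin do not show in this tally. The balance was taken as kept if its sign held and p stayed on the same side of 0.05. Without 1 array, or with sign flips within pairs, too few arrangements exist for p below 0.05. Only a change of sign could have shown there, so the tally says little about the balance. With the same filter the vehicle comparison lost Grin2a and Grin2d, and the row calls of Grin1 or Grin3b fell away under some scalings, as given above. Directions turned only for estimates that were not called. In neurons with Klotho, Grin3a was 0.01 by value table and 0.00584 without both replicate 1 arrays. In astrocytes, Grin3b was -0.00394 under median centring, Grin2c -0.14 in the value table's values, and Grin2b -0.12 and Grin2c -0.69 by its assignment. For the difference of the Klotho effects, normexp gave 0.30 for Grin2a. The value table gave 0.055 for Grin2a, -0.0425 for Grin2b, -0.02 for Grin2c and 0.13 for Grin2d on its z-score scale, and its assignment -0.26 for Grin2b, -0.34 for Grin2c and 0.10 for Grin2d. The cause was not tested.

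Leaving out 1 array at a time turned some of these estimates too. With Klotho in neurons Grin1 ran from -0.0725 to 0.635, Grin2a from -0.50 to 0.0909 and Grin3a from -0.13 to 0.12, and in astrocytes Grin3b from -0.30 to 0.29. The difference of effects ran from -0.40 to 0.30 for Grin2a, from -0.0720 to 0.53 for Grin2b and from -0.0514 to 0.54 for Grin3b. Between rows Grin3a ran from -0.29 to 0.20, and Grin2b passed without astrocyte Klotho replicate 1 (1.14, adjusted p = 0.0394, limma) or replicate 3 (1.12, adjusted p = 0.0385), which made the count 4 in place of 3. The cell type counts stayed at 7 whichever array was left out.

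Over all probes the 41 calls with Klotho in neurons became 6 under normexp, 7761 without a background filter (7501 higher and 260 lower, where the 41 were all lower), 3 with every array above background, 69 by value table, 25 with the replicate block and 15 without both replicate 1 arrays. Leaving out 1 array gave 19 (without Klotho replicate 1) to 60 (without control replicate 2). The 29 calls for the difference of effects became 11, 0 and 52 under normexp, the stricter filter and the value table, and 176 without astrocyte Klotho replicate 3, which also took the astrocyte Klotho calls from 0 to 18. The 16018 row calls became 9632 without astrocyte control replicate 1 and 9668 without replicate 4. The replicate block changed no call of an NMDA receptor gene. Signals near background limit Grin2d and the brighter Grin2a probe in astrocytes to bounds.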
